A study of Mus musculus with 4 samples.

Results

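Neutrophils infiltrating 20967 melanomas were examined by single-cell RNA sequencing of CD45+ cells. They are the cells that the deposited cell table names Neutrophils, 206 of 4108 cells (5.01%), of which 162 came from 5 control tumors and 44 from 5 tumors treated with the glucocorticoid (GC) clobetasol propionate. The 20967 line comes from a Nras+LSL-G12D;Tyr::CreERT2+/o mouse on a C57BL/6 background, in which an inducible Cre under the melanocyte promoter Tyr switches on mutant Nras, and its tumors were grown intradermally in wild-type C57BL/6 mice. Control mice received Cetraben, an emollient cream, and GC mice clobetasol propionate ointment, so all groups share the same tumor line and host, and 1 line cannot stand for melanoma in general. Each tumor carried its own hashtag, and the 5 tumors of a group were pooled before 17100 control and 3500 GC cells were loaded on 1 channel each, so that treatment and channel cannot be told apart. The age of the mice is not given in the sources used here.

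Neutrophils are short-lived phagocytes that leave the bone marrow as largely non-dividing cells, carrying granules filled in sequence: azurophil (primary) granules in promyelocytes, specific (secondary) granules in myelocytes, and gelatinase (tertiary) granules later. The chemokine receptor Cxcr2 and the G-CSF receptor Csf3r govern their release and survival, and once activated in tissue they make Il1b, chemokines and, under interferon, antiviral genes. Glucocorticoids act on the receptor encoded by Nr3c1, are known to raise circulating neutrophil numbers and lengthen neutrophil survival, and to restrain NF-kB-driven cytokine genes.

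Neutrophils per tumor numbered 24, 30, 39, 40 and 29 in control replicates 1 to 5, and 2, 19, 14, 2 and 7 in GC replicates 1 to 5. Levels below are unique molecular identifiers (UMIs) per 10000 UMIs of a cell, averaged over the neutrophils of a tumor. Tests of genes used the tumors with at least 10 neutrophils, which are 5 control tumors against GC replicates 2 and 3. GC replicate 5, with 7 neutrophils, served as a further tumor. GC replicates 1 and 4, with 2 neutrophils each, are given only as values. P-values rest on the spread between these tumors, which limma shares in part across genes. They hold no spread between channels, because each group was 1 channel. The median neutrophil held 4220.5 UMIs in control and 5881.5 in GC tumors, and 1318.5 against 1607.5 genes. Per tumor the median was 4187 ± 212 UMIs (SD, n = 5) in control and 5552 ± 507 (n = 2) in GC tumors (exact permutation p = 0.0476, two-sided, the smallest the design allows). Mitochondrial transcripts took a median of 0.218% and 0.217%.

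The cells carried the markers of their label. S100a8 and S100a9, the calprotectin subunits, Csf3r and Cxcr2 gave at least 3 UMIs together in 202 of 206 cells. Their summed level was 306 to 542 per 10000 in control tumors and 223 to 454 in GC replicates 2, 3 and 5, against 0.63 to 1.53 in eosinophils and 1.71 to 2.47 in Monocytes 2 of control tumors. Defining genes of lymphocytes, mast cells and platelets were rare. All 5 B cell genes and all 5 mast cell and basophil genes were at 0 in every neutrophil, and no neutrophil had 3 or more UMIs of the T cell, NK cell, dendritic cell or erythroid and platelet lists. At least 1 C1q UMI, a macrophage transcript, was present in 22 of 206 cells. The macrophage list summed to 2.48 to 3.67 in control tumors and to 1.38 to 1.94 in GC replicates 2, 3 and 5. The eosinophil list summed to 3.81 to 7.89 and to 1.72 to 4.52 in the same tumors, with 6 of its 10 genes, Prg2 and Alox15 among them, at 0 in every neutrophil. The monocyte lists and part of the eosinophil list were not at 0. At least 3 UMIs of the 8 nonclassical monocyte genes were in 147 of 206 neutrophils and of the 8 classical monocyte genes in 51, and at least 3 UMIs of the eosinophil list in 67. The nonclassical list summed to 15.2 to 18.2 in control tumors, 4.40, 5.56 and 5.53 in GC replicates 2, 3 and 5, and 25.1 to 37.9 in control Monocytes 2. The classical list, which holds Chil3, summed to 1.57 to 3.04 in control tumors, 62.3, 69.9 and 91.7 in GC replicates 2, 3 and 5, and 52.7 to 69.0 in control Monocytes 2. Most of the classical sum in GC tumors was Chil3 alone. Most of the nonclassical sum in control tumors was Nr4a1 and Itgal. The levels of these genes are given below. The part of any of these lists in the results below was not tested.

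Neutrophils took a larger share of the infiltrate in GC tumors. They made up 3.02, 3.58, 3.12, 7.01 and 8.36% of CD45+ cells in the control tumors and 11.1, 25.3, 12.6, 9.09 and 8.86% in the GC tumors. All 5 GC tumors lay above every control tumor, at 13.4% ± 6.85 against 5.01% ± 2.49 (SD, n = 5 each, exact permutation p = 0.00794, two-sided, adjusted p = 0.0159 over the 4 denominators). The counts behind the GC shares are small: 2 of 18 cells in replicate 1 (exact 95% interval 1.38 to 34.7%) and 2 of 22 in replicate 4 (1.12 to 29.2%).

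The shift was also present within the myeloid compartment and against each neighboring class. Of myeloid cells, neutrophils were 25.5% ± 4.36 in GC and 9.28% ± 4.32 in control tumors (exact permutation p = 0.00794, adjusted p = 0.0159), again with all 5 GC tumors above all control tumors. Of granulocytes, taken as neutrophils and eosinophils, they were 54.6% ± 14.3 against 27.8% ± 8.10 (exact permutation p = 0.0159, adjusted p = 0.0159). In that comparison 4 of 5 GC tumors lay above all control tumors. Of neutrophils and Monocytes 2 together they were 92.0% ± 14.5 against 58.9% ± 6.37 (exact permutation p = 0.0159, adjusted p = 0.0159), since Monocytes 2 held 116 control and only 2 GC cells. These are shares of recovered singlets, 305 in GC and 3803 in control tumors, and more neutrophils cannot be told apart from fewer of the other cells. For these single-cell data the paper describes the infiltrate as largely unchanged, apart from more CD8+ and fewer CD4+ T cells. By flow cytometry it reports substantially fewer lymphoid and myeloid cells after treatment, with CD8+ T cells spared.

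**Figure D1:**
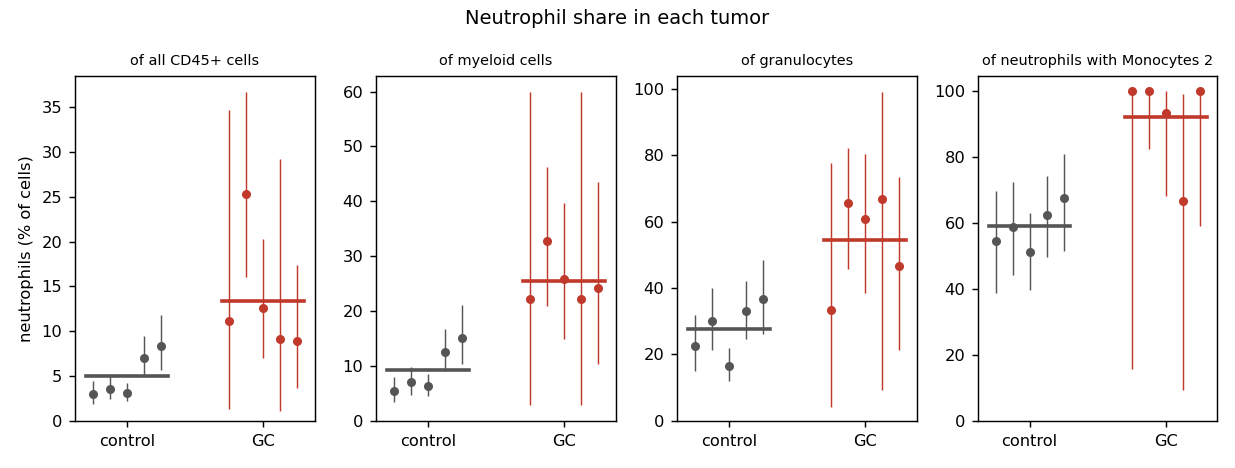
Share of neutrophils (percent, linear axes from 0) in each of 5 control and 5 GC tumors, of all CD45+ cells, myeloid cells, granulocytes, and neutrophils with Monocytes 2. Points are tumors, thin lines their exact 95% binomial intervals and thick lines group means. The 5 GC tumors sit above all control tumors in the first 2 panels, and 4 of 5 do in the others.

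In control tumors the neutrophils held few transcripts of early granules or of the cell cycle. The 7 azurophil granule and promyelocyte genes summed to at most 0.429 per 10000 in any control tumor, with no UMI of Elane (neutrophil elastase), Mpo (myeloperoxidase) or Prtn3 (proteinase 3). The 7 proliferation genes, such as Mki67 and Top2a, summed to at most 0.499. Of the specific granule genes, Camp (cathelicidin) and Fcnb (ficolin B) had no UMI and Ltf (lactoferrin) lay between 0.219 and 0.616. Lcn2 (lipocalin 2, which binds bacterial siderophores) lay between 2.17 and 8.64.

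Genes of the last stages were present in every control tumor. Mmp9 (gelatinase B) was at 4.61 to 9.21, Pglyrp1 (a peptidoglycan-binding protein) at 4.07 to 5.96 and Hp (haptoglobin) at 3.42 to 4.78. The whole gelatinase granule and late maturation list was not particular to neutrophils. It summed to 32.5 to 54.7 in them and to 43.0 to 79.0 in eosinophils, which were higher in every control tumor. Retnlg made up most of the eosinophil sum. Cxcr4, a receptor that rises as neutrophils age, was at 8.79 ± 1.16 (SD, n = 5). Ly6g, the antigen used to gate mouse neutrophils, was barely detected, with 12 UMIs in 10 of 162 control cells and none in 44 GC cells, which limits GC neutrophils with a Ly6g UMI, not those expressing the gene, to 6.82%.

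Set against eosinophils and Monocytes 2 of the same 5 control tumors, the neutrophils stood apart by their markers. These comparisons carry no test, because the clusters were drawn from the same transcripts, and eosinophils were shallow (median 873.5 UMIs) and Monocytes 2 deep (12800). At least 4-fold higher than in eosinophils in all 5 tumors were 98 of 2264 genes (4.33%), and at least 4-fold lower 90 (3.98%). Against Monocytes 2 the counts were 129 of 2497 (5.17%) and 211 (8.45%).

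Among the 12 genes furthest above eosinophils were the 4 markers, Il1f9 (IL-36 gamma), Rdh12 (a retinol dehydrogenase), Lcn2, Wfdc21 (a whey acidic protein family member), Trem1 (an activating receptor that amplifies inflammation), Nlrp3 (the inflammasome sensor) and Stfa2l1 (a stefin A protease inhibitor). Nlrp3 was at 15.2 ± 3.81 in neutrophils and 0.325 ± 0.086 in eosinophils. Trem1 was at 10.3 ± 1.13 and 0.176 ± 0.17.

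The 12 furthest above Monocytes 2 were S100a9, S100a8, Acod1 (which makes itaconate), Retnlg (a resistin-like secreted protein), Hdc (histidine decarboxylase), G0s2 (a lipase inhibitor), Cxcr2, Rdh12, Ankrd33b, Il1r2 (the decoy IL-1 receptor), Mmp9 and Cxcl2. Hdc was at 43.2 ± 5.88 against 0.204 ± 0.101. Acod1 was at 58.0 ± 14.5 against 0.0986 ± 0.128. Retnlg separated neutrophils from Monocytes 2, at 21.4 ± 6.36 against 0.0369 ± 0.0425, but not from eosinophils, where it was at 59.96 ± 13.4 and higher in all 5 tumors.

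Activation genes divided between the classes. Il1b, the pyrogenic cytokine, was at 160, 175, 178, 210 and 186 in control neutrophils, against 11.7 to 22.1 in eosinophils and 12.6 to 26.2 in Monocytes 2. Cxcl2, the neutrophil-attracting ligand of Cxcr2, was at 94.0 ± 12.8, 20.1 ± 2.73 and 1.73 ± 1.16 in the 3 classes. Neutrophils thus carried both a ligand and its receptor at higher levels than either other class in all 5 tumors. Ptgs2 (cyclooxygenase 2) was at 56.3 ± 14.6 in neutrophils, 34.4 ± 4.87 in eosinophils and 1.60 ± 0.831 in Monocytes 2, and Cd274 (PD-L1) at 8.04 ± 3.797, 1.43 ± 0.488 and 0.675 ± 0.541.

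Other defense genes were lower in neutrophils. Il1rn, the IL-1 receptor antagonist, was at 10.9 ± 1.58 against 60.1 ± 8.33 in eosinophils. Cybb, the catalytic subunit of the NADPH oxidase, was at 0.55 ± 0.242 in neutrophils, 11.7 ± 1.36 in eosinophils and 19.9 ± 2.35 in Monocytes 2. The class I gene H2-K1 was at 7.64 ± 1.19 in neutrophils and 46.7 ± 4.45 in eosinophils. Some lineage genes of the neighboring classes were near 0 in neutrophils, although the summed lists were not: Alox15 and Prg2 had no UMI, Ccr3 was at 0.0513 ± 0.0512 against 9.11 ± 2.02 in eosinophils, and Ccr2 at 0.31 ± 0.203 against 11.7 ± 0.788 in Monocytes 2.

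**Figure D2:**
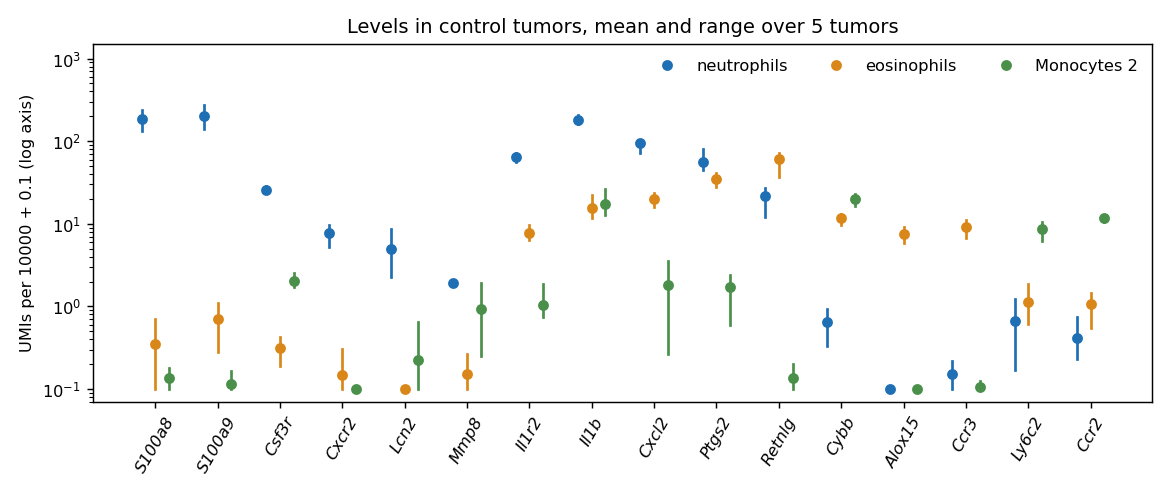
Levels of 16 genes in neutrophils, eosinophils and Monocytes 2 of control tumors, in UMIs per 10000 plus 0.1 on a log axis. Points are means and bars the range over 5 tumors. Neutrophils are above both other classes for S100a8, S100a9, Csf3r, Cxcr2, Lcn2, Il1r2, Il1b, Cxcl2 and Ptgs2, below eosinophils for Retnlg and below both for Cybb.

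After GC, Chil3, Lcn2, Mmp8, Bcl2l1 and several GC-responsive genes rose in neutrophils, and Nr4a1, Itgal, Il1b, Il1rn and, by limma, class II transcripts fell. By limma on log2(level + 0.1), 213 of 4411 genes passed at an adjusted p under 0.05 (4.83%), with 92 higher (2.09%) and 121 lower (2.74%). With the UMIs summed per tumor, edgeR called 205 (4.65%, 116 higher and 89 lower) and both tools 163 (3.7%), of which 79 rose and 84 fell. With GC replicate 5 added, limma called 192 of 4567 genes (4.2%), and 142 of the 213 were among them, 64 rises and 78 falls. The tumors of the groups did not overlap for 978 of the 4411 genes (22.2%), so that separation alone is common. GC neutrophils were deeper than control neutrophils, and with every cell thinned to 1000 UMIs limma called 130 genes. Of the called genes chosen by name or list that could be tested after thinning, 28 kept their limma call and 30 lost it. Those that kept it include Chil3, Mt1, Lcn2, Mmp8, Bcl2l1, Bcl2l15, Rnf169, Gpc3, Gm36723, Nr4a1, Dusp5, Prr5l, Ifi27l2a, Il1b, Acod1, G0s2, Junb, Tnfaip2, Rsad2, Isg15 and Ifitm1. For genes described below that lost it, the thinned value is given beside them.

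The largest rise was that of Chil3 (chitinase-like 3, Ym1), a secreted lectin stored in neutrophil specific granules and also made by monocytes and macrophages. Chil3 was at 0, 0.147, 0, 0.062 and 0 in control neutrophils and at 177, 61.1, 68.0, 53.5 and 83.9 in GC replicates 1 to 5. Every GC tumor, including those with 2 neutrophils, lay far above every control tumor. The change was 8.93 ± 0.51 (SE, log2) with a limma adjusted p of 4.07e-10 and an edgeR adjusted p of 1.93e-12. Over all cells 3 UMIs were counted in control and 1917 in GC neutrophils, a ratio of 1683 (exact 95% counting interval 575 to 8169).

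Nearly every GC neutrophil held Chil3 RNA. A UMI was found in 43 of 44 GC neutrophils and 3 of 162 control neutrophils, and after thinning to 1000 UMIs in 41 of 44 and 0 of 154. In the same channels a Chil3 UMI was found in 1 of 32 GC eosinophils (median 721 UMIs) and 2 of 478 control eosinophils. The 2 GC cells of Monocytes 2 held 224 Chil3 UMIs, all in 1 of them. In control tumors Chil3 was at 9.24 ± 5.52 per 10000 in Monocytes 2, higher than in neutrophils in all 5 tumors. Chil3 lies on chr3:106147554-106167564 of GRCm38 beside near-identical paralogs, whose reads can be hard to assign.

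Among the other granule genes Lcn2 and Mmp8 rose. Lcn2 was at 4.98, 3.49, 8.64, 2.17 and 4.80 in control tumors and at 18.6, 29.9 and 27.5 in GC replicates 2, 3 and 5, a rise of 2.41 ± 0.40 (limma adjusted p = 0.00348, edgeR 0.0111). Mmp8, neutrophil collagenase, was at 1.78, 1.65, 1.74, 1.95 and 2.02 in control and at 9.87, 14.6 and 21.1 in the GC tumors, a rise of 2.66 ± 0.30 (limma adjusted p = 1.82e-05, edgeR 1.44e-05). For both genes no control tumor reached any GC tumor, and only Lcn2 lost its limma call when a tumor was left out (adjusted p = 0.0824 without GC replicate 3). Of 6 specific granule genes tested 2 rose (Lcn2 and Chil3), and of 8 gelatinase granule and late maturation genes 1 rose (Mmp8), with none falling and medians of 0.47 and 0.71 against 0.03 over all genes tested. Rises made up 2.09% of all genes tested.

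Of the remaining granule genes none passed by limma with GC replicates 2 and 3, and Hp passed by edgeR and with replicate 5 added. Ltf was at 0.218 and 0.61 in GC replicates 2 and 3 against 0.219 to 0.616 in control tumors, and Mmp9 at 5.09 and 6.03, inside its control range. Ngp, on the specific granule list, went the other way, with 102 UMIs in 10 of 162 control and 6 UMIs in 2 of 44 GC neutrophils. Single cells of control replicates 2 and 3 held 53 and 34 of the control UMIs. Olfm4 had 47 control UMIs, 40 of them in 1 cell of control replicate 1, and 3 GC UMIs. Hp was at 7.42, 7.61 and 12.9 in GC replicates 2, 3 and 5 against 3.42 to 4.78 in control tumors (limma adjusted p = 0.0752, edgeR 0.0478, and 0.0248 by limma with replicate 5). Retnlg differed between the GC tumors, at 30.1, 62.7 and 1.86 in replicates 2, 3 and 5 against 11.9 to 26.96 in control tumors. Azurophil genes were too low for the test in either group, at a sum of 0.12 and 0.429 in GC replicates 2 and 3.

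Of 16 tested genes for the glucocorticoid receptor and its known responses, 5 rose and none fell, with a median of 0.54 against 0.03 over all genes. Rises made up 2.09% of all genes tested. Klf9, a Kruppel-like repressor and direct receptor target, was at 0, 0, 0.134, 0.071 and 0 in control and at 1.44, 1.07 and 2.49 in GC replicates 2, 3 and 5 (3.35 ± 0.74, limma adjusted p = 0.0102, edgeR 0.00357). Zbtb16, the transcription factor PLZF, was at 0 to 0.166 in control tumors and at 0.981, 1.99 and 1.90 in these GC tumors (2.89 ± 0.62, limma adjusted p = 0.00908, edgeR 0.00848). Fkbp5, the receptor co-chaperone, was at 0.057 to 1.16 and at 1.54, 3.40 and 2.11 (2.53 ± 0.67, limma adjusted p = 0.0332, edgeR 0.058). The groups did not overlap for these 3 genes, but few UMIs stand behind them, 3 and 40 for Klf9 in control and GC neutrophils. Left out in turn, GC replicate 3 ended all 3 limma calls, GC replicate 2 that of Klf9, and control replicates 2, 4 or 5 that of Fkbp5, with adjusted p up to 0.144 for Klf9, 0.216 for Zbtb16 and 0.282 for Fkbp5. After thinning the limma adjusted p was 0.0664 for Klf9, 0.0855 for Zbtb16 and 0.115 for Fkbp5.

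Dusp1, the MAP kinase phosphatase, rose least of the 5. It was at 70.6, 51.4, 61.0, 54.6 and 60.1 in control and at 91.4, 83.5 and 75.4 in GC replicates 2, 3 and 5 (0.56 ± 0.15, limma adjusted p = 0.0302), and passed neither by edgeR (0.194) nor with GC replicate 5 added (0.0835), nor by limma without GC replicate 2 or 3 or control replicate 2, 3 or 4 (up to 0.121), nor after thinning (0.0861). Tsc22d3, the GC-induced leucine zipper GILZ, was at 2.45 to 6.67 in control tumors and at 3.73, 7.88 and 9.42 (limma adjusted p = 0.533). Nr3c1, the receptor itself, was at 3.14 to 4.06 and at 1.44, 2.29 and 3.40 (limma adjusted p = 0.0707).

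Mt1, the metal-binding metallothionein, rose by 5.12 ± 0.57 (limma adjusted p = 1.82e-05, edgeR 1.36e-06). It was at 0.0839, 0.119, 0.18, 0.0503 and 0 in control and at 6.20, 5.85 and 11.7 in GC replicates 2, 3 and 5, but at 0 and 0.758 in replicates 1 and 4. Mt1 UMIs were in 15 of 44 GC and 7 of 162 control neutrophils, and after thinning in 9 of 44 and 2 of 154. Mt2, its neighbour, had no UMI in any neutrophil. Mt1 alone of the 4 risen GC-response genes with a RefSeq promoter (250 bases before to 50 after the start) held the palindromic receptor motif GNACANNNTGTNC, searched on both strands and present in 0.537% of 27025 promoters. The motif stands in capitals in this window, chr8:94178987-94179016, plus strand, GRCm38.p6.
Mt1: cactatagGGACATGATGTTCcacacgtca

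Of 15 survival and death genes tested 2 rose and none fell, with a median of -0.23, or 0.21 with GC replicate 5 added. The share that rose over all genes tested was 2.09%, and their median was 0.03. Bcl2l1, which encodes anti-apoptotic Bcl-xL, was at 2.53, 4.29, 3.85, 4.19 and 4.25 in control and at 12.97, 14.1, 11.5, 23.5 and 15.6 in GC replicates 1 to 5. Every GC tumor exceeded every control tumor (1.74 ± 0.27, limma adjusted p = 0.000547, edgeR 0.00357). Bcl2l15, a Bcl-2 family member linked to apoptosis, had 1 UMI in control and 71 in GC neutrophils (4.15 ± 0.72, limma adjusted p = 0.00181, edgeR 9.46e-05), and lost the limma call without GC replicate 3 (adjusted p = 0.13). Mcl1, the short-lived survival factor on which neutrophils depend, was at 28.4 to 31.5 in control tumors and at 28.3, 22.5 and 16.9 in GC replicates 2, 3 and 5 (limma adjusted p = 0.535).

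The other 9 of the 12 largest rises lay outside the gene lists. Prnp, the prion protein, was at 0 to 0.445 in control and at 3.99, 2.80 and 6.73 in GC replicates 2, 3 and 5 (4.26 ± 0.67, limma adjusted p = 0.000605, edgeR 0.00366). Klhl6, a ubiquitin ligase adaptor of lymphoid cells, was at 0.0938 to 0.302 and at 3.94, 2.90 and 9.57 (3.70 ± 0.53, limma adjusted p = 0.000287). Rnf169, a ubiquitin-binding protein of the DNA damage response, was at 0.189 to 0.833 and at 5.02, 11.3 and 6.37 (3.79 ± 0.49, limma adjusted p = 9.61e-05). Tg (thyroglobulin) had no UMI in 162 control neutrophils and 45 UMIs in 18 of 44 GC neutrophils, at least 39.5-fold higher against a floor of 3 UMIs over the control cells (limma adjusted p = 0.00348, up to 0.157 without GC replicate 2 or 3).

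Slc24a3 (a sodium, calcium and potassium exchanger), Alpk1 (a sensor of bacterial sugar), Gpc3 (glypican 3) and Gm36723 (a predicted gene) rose by 4.11, 3.50, 3.47 and 3.40. All 4 also passed by edgeR and with GC replicate 5 added, although Gpc3 lost its limma call without GC replicate 2 or 3 (up to 0.118) and Alpk1 fell under the filter on low values without GC replicate 3. Tango6 rose by 3.56 (limma adjusted p = 0.0107), was at 0 in GC replicate 5 and passed neither without GC replicate 2 (0.276) nor with replicate 5 added (0.303). After thinning, the limma adjusted p was 0.0664 for Prnp, 0.0626 for Klhl6, 0.0808 for Tg, 0.147 for Slc24a3, 0.35 for Alpk1 and 0.521 for Tango6. Introns were counted, so low levels of long genes such as Tg and Slc24a3 may include unspliced or antisense reads.

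**Figure D3:**
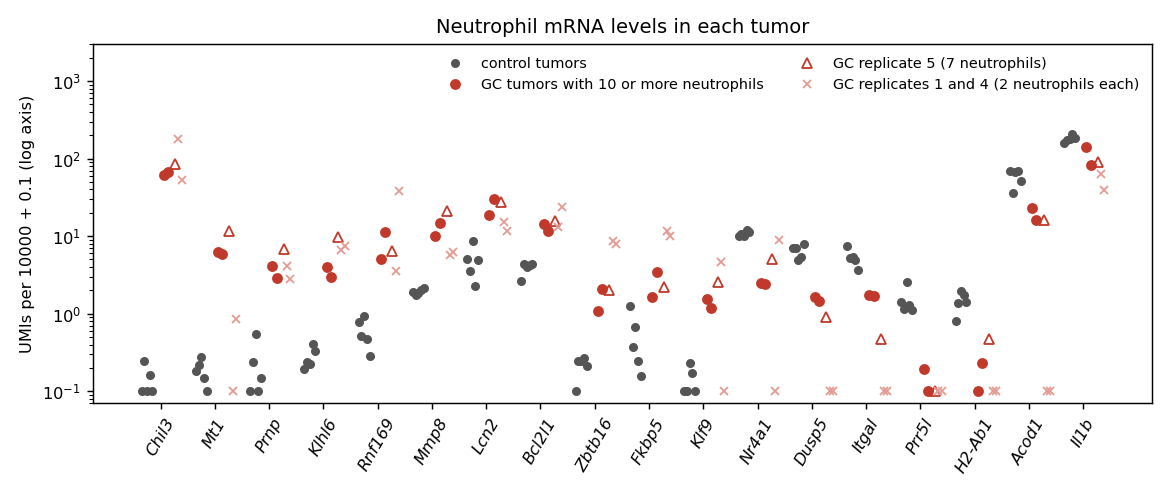
Levels of 18 genes in neutrophils of each tumor, in UMIs per 10000 plus 0.1 on a log axis. Dots are 5 control tumors and GC replicates 2 and 3, triangles GC replicate 5 and crosses GC replicates 1 and 4. Chil3 reaches 53.5 to 177 in GC tumors against 0.147 at most in control tumors, and Nr4a1, Dusp5, Itgal and Acod1 in GC replicates 2, 3 and 5 lie below all control tumors.

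Among the genes that fell were Nr4a1 and Itgal, which nonclassical monocytes also express, and, by limma, class II genes. Nr4a1, an orphan nuclear receptor induced by activation, was at 10.0, 10.5, 10.1, 11.95 and 11.2 in control and at 2.37, 2.32 and 4.99 in GC replicates 2, 3 and 5 (fell by 2.15, SE 0.23, limma adjusted p = 1.68e-05, edgeR 9.46e-05). Itgal, the LFA-1 alpha chain, was at 3.51 to 7.45 and at 1.66, 1.58 and 0.369 (fell by 1.60, limma adjusted p = 0.00349, edgeR 0.00444). They are 2 of the 3 nonclassical monocyte genes that could be tested. After thinning, Itgal had a limma adjusted p of 0.125. The third, Cx3cr1, did not pass. Of 5 tested classical monocyte genes 1 rose (Chil3), and of 3 macrophage genes none passed by limma, edgeR or DESeq2 (1 at an unadjusted p under 0.05), while Adgre1 fell with GC replicate 5 added (limma adjusted p = 0.0295).

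Itgax, which encodes the integrin CD11c, was at 1.13, 1.56, 0.595, 0.42 and 0.313 in control tumors and had no UMI in any of 44 GC neutrophils. Against a floor of 3 UMIs over the GC cells this is at least 6.45-fold lower (limma adjusted p = 0.00768, edgeR 0.0169). After thinning, Itgax was seen in only 6 of 154 control neutrophils, so that its absence in GC cells is near the limit of detection. The limma adjusted p after thinning was 0.379. Itgam, the CD11b chain, which is on the surface receptor list, did not pass.

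The 3 class II genes tested as H2-Aa, H2-Ab1 and H2-Eb1 all fell by limma, with values between -2.47 and -3.21, while the other 7 tested genes of antigen presentation did not pass (median of the 10, -0.66). H2-Ab1 was at 0.707, 1.26, 1.87, 1.66 and 1.31 in control and at 0, 0.128 and 0.369 in GC replicates 2, 3 and 5 (limma adjusted p = 0.000863, edgeR 0.0146). H2-Aa passed by edgeR (0.0304) and H2-Eb1 did not (0.0788), and both lost their limma calls without GC replicate 3 (0.0735 and 0.115). None of the 3 passed by DESeq2 (adjusted p of 0.167 for H2-Aa, 0.0689 for H2-Ab1 and 0.3 for H2-Eb1) or by limma after thinning (0.361, 0.11 and 0.424). H2-Ab1 was at 37.8 ± 2.31 in control tumor-associated macrophages (TAMs) and 15.6 and 26.6 in GC replicates 2 and 3. The part of free macrophage RNA in the neutrophil values was not tested. Without the 22 cells holding a C1q UMI limma called 202 genes, 182 of them among the 213.

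Some cytokine transcripts fell. Il1b was at 160, 175, 178, 210 and 186 in control and at 139, 81.6 and 89.9 in GC replicates 2, 3 and 5 (fell by 0.76, SE 0.16, limma adjusted p = 0.0095, edgeR 0.0498). Il1rn was at 9.12 to 12.4 and at 6.46, 4.03 and 3.31 (fell by 1.07, SE 0.24, limma adjusted p = 0.0123, edgeR 0.0239). All 3 GC tumors lay below all control tumors for both the cytokine and its antagonist, although both limma calls were lost without GC replicate 3 (0.203 and 0.2). After thinning, Il1rn had a limma adjusted p of 0.0561. Of 12 cytokines and chemokines tested these 2 fell and none rose, with 10 values below 0 and a median of -0.83. Among all genes tested 2.74% fell, and 2127 of 4411 values were below 0 around a median of 0.03. Cxcl2 was at 72.0 to 104 in control tumors and at 78.3, 113 and 99.8 in GC replicates 2, 3 and 5 (limma adjusted p = 0.982).

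Acod1 was at 69.0, 35.5, 66.2, 68.1 and 51.3 in control and at 23.3, 16.0 and 16.2 in GC replicates 2, 3 and 5 (fell by 1.54, limma adjusted p = 0.00181, edgeR 0.0125). G0s2 was at 10.3 to 29.4 and at 4.71, 7.04 and 4.51 (fell by 1.84, limma adjusted p = 0.00537). Both genes are among the 12 furthest above Monocytes 2 in control tumors. The limma call was lost without GC replicate 3 for Acod1 (0.0642) and without GC replicate 2 or 3 for G0s2 (up to 0.105).

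Of 17 NF-kB feedback and immediate early genes, 4 fell and none rose, with a median of -0.06. The share that fell over all genes tested was 2.74%, and their median was 0.03. Junb, an AP-1 subunit, was at 59.9 to 67.9 in control tumors and at 38.7, 42.6 and 31.4 in GC replicates 2, 3 and 5 (fell by 0.65, limma adjusted p = 0.0088). Tnfaip2, a TNF-induced gene, was at 17.0 to 21.4 and at 11.0, 9.22 and 5.77 (fell by 0.95, limma adjusted p = 0.00598). Fosb and Atf3 fell with GC replicates 2 and 3, by 1.10 and 1.20, and neither passed with replicate 5 added. Without GC replicate 3 the limma calls of Tnfaip2 (0.0658), Fosb (0.134) and Atf3 (up to 0.275, also without control replicate 2, 3 or 4) were lost, and after thinning that of Fosb (0.584). Egr1 and Nfkbia lay within the control range in these 3 GC tumors.

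Prr5l, an mTORC2-associated protein, was at 1.31, 1.06, 2.45, 1.18 and 1.03 in control and at 0.093, 0 and 0 in GC replicates 2, 3 and 5 (fell by 3.37, limma adjusted p = 0.000457, edgeR 0.00357). Clic4, an intracellular chloride channel protein, fell by 2.88 (limma adjusted p = 0.0137, edgeR 0.0493), but not without GC replicate 2 (0.121) or after thinning (0.407). Mreg (melanoregulin) and Mitf, genes known from pigment cells, fell by 3.16 and 2.96 with GC replicates 2 and 3. Neither held with GC replicate 5 added, where Mreg was at 2.62 and Mitf at 1.39, and Mitf was also lost without GC replicate 3 (0.0731). After thinning the limma adjusted p was 0.291 for Mreg and 0.0836 for Mitf. Of the melanocyte list, Tyr, Dct, Pmel and Mlana had no UMI in any neutrophil.

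Genes of aged and tumor neutrophils gave 2 falls and no rise among 16 tested (median -0.51), where 2.74% of all genes tested fell. With GC replicate 5 added the median was -0.14, with 1 rise (Cd14) and 2 falls (Hif1a and Cd274). Spp1 (osteopontin) was at 3.00, 2.28, 2.85, 0.495 and 0.634 in control and at 0, 0.113 and 1.05 in GC replicates 2, 3 and 5 (fell by 3.43, limma adjusted p = 0.00423), and the limma call was lost without replicate 2 (0.082) or with replicate 5 added (0.106). Hif1a, the hypoxia factor, was at 6.05 to 7.72 and at 4.74, 2.74 and 2.12 (fell by 0.94, limma adjusted p = 0.0401, edgeR 0.0833), a call lost without GC replicate 3 or any control tumor (up to 0.415) and after thinning (0.352). Arg2 was at 13.4 to 16.6 and at 17.3, 14.3 and 13.03 (limma adjusted p = 0.995).

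Interferon-stimulated genes were low in GC replicates 2 and 3, and in the 2 cells each of replicates 1 and 4, but not in replicate 5. Of 32 tested with replicates 2 and 3, 9 fell and none rose by limma (5 also by edgeR), 29 values lay below 0, and the median was -1.19. Over all genes tested 2.74% fell, 2127 of 4411 values lay below 0 and the median was 0.03. With GC replicate 5 added the median of the list was -0.71, with 2 falls. Rsad2, which encodes the antiviral protein viperin, was at 4.53, 2.20, 7.74, 9.51 and 2.73 in control tumors and at 0.157 and 0.128 in GC replicates 2 and 3 (fell by 4.28, SE 0.48, limma adjusted p = 3.61e-05, edgeR 0.0103). In GC replicate 5 it was at 4.64, inside the control range, and the change over all 3 GC tumors was -2.85 (limma adjusted p = 0.19).

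Isg15, the ubiquitin-like modifier, showed the same split. It was at 4.45, 3.38, 5.70, 9.42 and 3.46 in control, at 1.77 and 0.532 in GC replicates 2 and 3, and at 3.51 in replicate 5 (fell by 2.20 over replicates 2 and 3, limma adjusted p = 0.00648, edgeR 0.127). Without GC replicate 3 its limma adjusted p was 0.105. Ifit1, Oasl1, Oasl2, Irf7 and Slfn5 likewise lost their limma calls with replicate 5 and without GC replicate 3 (adjusted p up to 0.316, 0.32, 0.261, 0.0785 and 0.221 over the tumors left out). After thinning their limma adjusted p was 0.379, 0.114, 0.988, 0.352 and 0.136. In replicate 5 Slfn5 stood at 6.20 against 0.587 to 4.27 in control tumors. Rtp4, an interferon-induced chaperone named among the 12 largest falls, was at 0.0643, 0.536 and 3.03 in GC replicates 2, 3 and 5 against 1.49 to 3.55.

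A few genes stayed low in all 3 GC tumors. Ifitm1, an interferon-induced membrane protein, was at 7.01 to 14.0 in control and at 3.82, 3.68 and 3.81 in GC replicates 2, 3 and 5 (fell by 1.28, limma adjusted p = 0.00648, and 0.00599 with replicate 5). Trim30a, a TLR feedback regulator, was at 5.10 to 8.10 and at 3.13, 2.38 and 3.603 (fell by 1.19, limma adjusted p = 0.0118, 0.0268 with replicate 5, 0.119 without GC replicate 3, and 0.426 after thinning). Ifi27l2a, outside the list but among the 12 largest falls, was at 2.29 to 6.16 and at 0.172, 0.791 and 0.808 (fell by 3.15, limma adjusted p = 0.000487).

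Summed over the 35 listed interferon genes in the table, the level was 62.9, 46.3, 75.1, 101 and 42.2 in control tumors, 30.1 and 17.9 in GC replicates 2 and 3, 73.4 in replicate 5, and 8.75 and 14.1 in replicates 1 and 4. Mx1 and Mx2 were not analysed here. Per cell, the median sum was 27.9 to 65.3 in control tumors, 18.6 and 16.5 in GC replicates 2 and 3, and 105.5 over the 7 cells of replicate 5, of which 4 were at 50 or more. Single cells varied widely within each tumor, from 10.9 to 544 in control replicate 3. GC replicates 1 to 4 thus lay below all control tumors, and replicate 5 inside their range for the summed level.

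**Figure D4:**
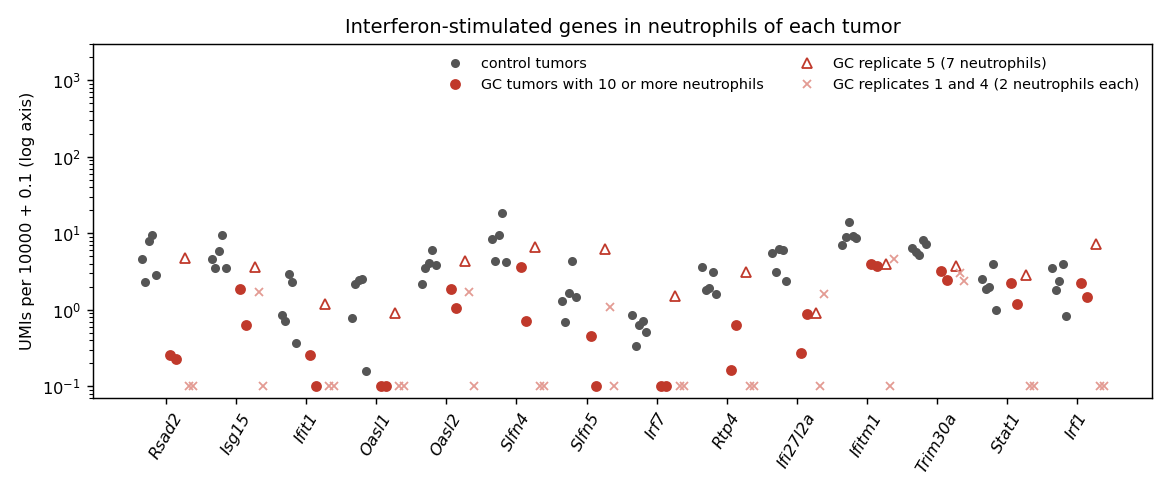
Levels of 14 interferon-stimulated genes in neutrophils of each tumor, in UMIs per 10000 plus 0.1 on a log axis, with symbols for control tumors, GC replicates 2 and 3 (large dots), replicate 5 (triangle) and replicates 1 and 4 (crosses). Rsad2, Isg15, Slfn5 and Rtp4 in replicate 5 lie within or above the control range, while Ifitm1 and Trim30a lie below it.

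Of the 9 interferon genes that fell, 5 held the core of the interferon-stimulated response element, GAAANNGAAA on either strand, in the RefSeq promoter, against 3.99% of 27025 promoters. Of 20 tested listed genes that were not called, 11 held it (55.6% and 55% of the 2 sets). A match describes the letters and not a bound site. The windows below, on GRCm38.p6 and written in the direction of the gene with the motif in capitals, are shown because they belong to Rsad2, Ifit1 and Isg15, which lost their calls with GC replicate 5, and to Trim30a, which kept it. They lie on chr12:26456553-26456582 (minus strand), chr19:34640775-34640804 (plus), chr4:156200871-156200900 (minus) and chr7:104465210-104465239 (minus). In the Isg15 window the capitals mark the match that begins 72 bases before the start. Overlapping matches that begin 78 and 66 bases before it are also in the window, in part in small letters.
Rsad2: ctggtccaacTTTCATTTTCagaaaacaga
Ifit1: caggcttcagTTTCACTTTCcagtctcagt
Isg15: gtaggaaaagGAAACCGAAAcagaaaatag
Trim30a: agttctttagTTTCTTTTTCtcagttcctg

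No calls came from the lists of neutrophil markers, mature surface receptors, oxidative burst genes, and eicosanoid and resolution genes. None of the 4 neutrophil markers passed by limma, edgeR or DESeq2, and 1 was lower at an unadjusted p under 0.05. None of 16 surface receptors of mature neutrophils passed by any of the 3 tools (5 at an unadjusted p under 0.05, 2 higher and 3 lower), with log2 changes from -0.61 to 0.73 and a median of -0.04. Cxcr2 was at 5.17 to 9.59 in control tumors and at 9.18, 5.96 and 6.26 in GC replicates 2, 3 and 5. None of 6 oxidative burst genes passed by any of the tools (1 at an unadjusted p under 0.05, median -0.02), nor did any of 6 eicosanoid and resolution genes (2 at an unadjusted p under 0.05, median -0.13). With 2 GC tumors these counts do not show that the levels were equal.

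The response was also set against that of TAMs of the same tumors (GC replicates 2 and 3, with 17 and 16 TAMs). The difference of the 2 responses passed for 136 of 6513 genes (2.09%) by limma with tumor as a random block, 71 more positive and 65 more negative in neutrophils. Of these, 69 also passed by edgeR, 86 with at least 5 cells a tumor, and 51 in both. Monocytes 2, with 2 GC cells, could not be compared in this way.

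Chil3 rose in both classes and more in neutrophils. In TAMs it was at 0.302 to 0.886 in control tumors and at 19.7 and 31.2 in GC replicates 2 and 3, and the difference was 3.68 ± 0.55 (limma adjusted p = 0.00462, edgeR 0.00163). On the log2 scale Mt1 and Rnf169 also rose more in neutrophils, with differences of 2.75 (limma adjusted p = 0.0127) and 2.47 (0.0283). That of Mt1 had a limma adjusted p of 0.377 with a pseudocount of 1. In TAMs Mt1 was at 2.48 to 6.55 in control tumors and at 15.6 and 27.6 in GC replicates 2 and 3. These levels were above those of neutrophils in both groups. Tnfaip6, a hyaluronan-binding protein, was at 3.93 and 3.64 in GC neutrophils against 0.451 to 2.17 in control, and at 0 and 0.384 in GC TAMs against 0.408 to 1.43 (difference 3.605, limma adjusted p = 0.0302, edgeR 0.0185). Its own rise in neutrophils had a limma adjusted p of 0.267 after thinning. For Klf9, Fkbp5 and Zbtb16 the difference did not pass (limma adjusted p = 0.61, 0.821 and 0.613), with TAM changes of 2.68, 3.04 and 2.05.

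Some falls were larger in neutrophils than in TAMs. The difference was -2.05 ± 0.24 for Nr4a1 (limma adjusted p = 0.000288, edgeR 4.87e-05), with TAM levels of 2.44 to 3.21 in control and 2.73 and 2.37 in GC tumors. It was -1.05 ± 0.25 for Il1b (limma adjusted p = 0.039, edgeR 0.0185), -1.72 ± 0.33 for Itgal (limma adjusted p = 0.0127, edgeR 0.00309) and -1.76 ± 0.34 for Acod1 (limma adjusted p = 0.0127, edgeR 0.0411). Of these 4 genes, TAM levels of Il1b were 38.5 to 42.1 in control and 38.4 and 64.3 in GC tumors.

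Some transcripts found in neutrophils were higher in GC TAMs than in control TAMs. Of the 3 named here, Mmp8 was not particular to neutrophils. In control tumors a Mmp8 UMI was in 61 of 162 neutrophils and in 38 of 116 Monocytes 2, which were deeper. Cxcr2 was at 0.0141 to 0.1 in control TAMs and at 0.749 and 0.816 in GC TAMs (difference -2.71 ± 0.42, limma adjusted p = 0.00462, edgeR 1.38e-05, and 0.102 by limma with a pseudocount of 1). Mmp8 was at 0.0122 to 0.172 and at 5.11 and 5.39, a larger change than in neutrophils on this scale (difference -2.44 ± 0.43, limma adjusted p = 0.01, edgeR 4.87e-05), but not with a pseudocount of 1 (0.391). S100a8 was at 0.0308 to 0.136 and at 0.517 and 1.83, but at 0.0558 in the TAMs of GC replicate 5, and its difference had an adjusted p of 0.16 with at least 5 cells a tumor. The neutrophil share of cells was also higher in these GC tumors, and its part in the TAM values was not tested.

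**Figure D5:**
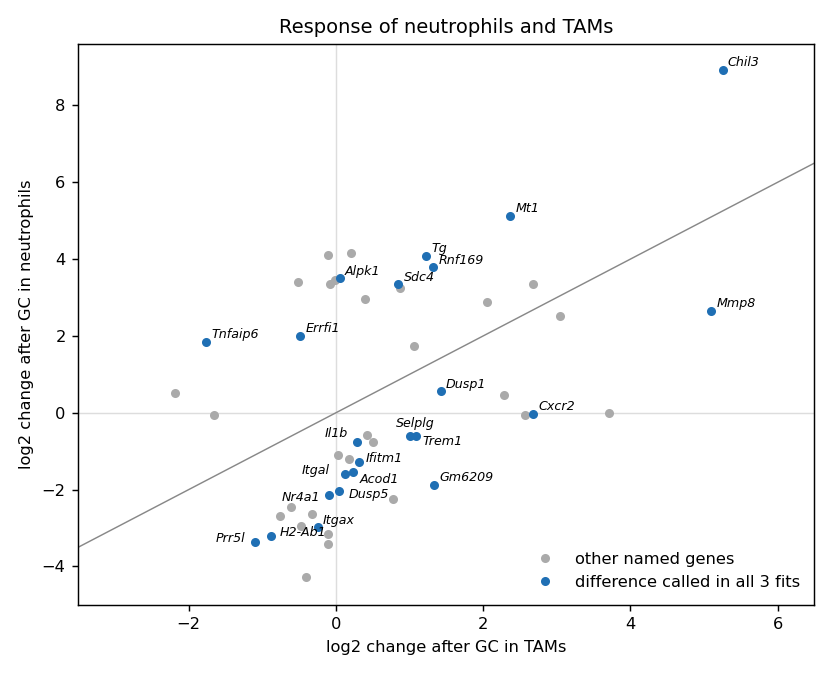
Log2 change after GC in TAMs (horizontal) and in neutrophils (vertical) for named genes, with the line of equal change. Blue, labelled points are genes whose difference passed in 3 fits (limma, edgeR, and limma with at least 5 cells a tumor). Chil3 (5.25 and 8.93) and Mt1 (2.37 and 5.12) lie above the line, and Mmp8 (5.09 and 2.66) and Cxcr2 (2.68 and -0.03) below it.

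A comparison with the eosinophil response rested on 1 GC tumor. Only GC replicate 2 had 10 eosinophils, of which 2 held 3 or more mast cell UMIs, 410 in all, and the highest held 8866 UMIs. By limma 1526 of 6007 genes passed (25.4%) around a median difference of 0.79, while edgeR called 125. No gene is named from it.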

How the data were processed

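Cells and clusters are the authors' own. Reads of the 3' libraries were counted by the authors with Cell Ranger 7.1.0 (mm10, introns included) and filtered, demultiplexed by hashtag, integrated and clustered with Seurat 5.0.3 and R 4.3.1. The deposited values are the natural log of 1 plus UMIs per 10000 per cell. Undoing that scale gave whole UMIs for 100% of values (tolerance 0.01), and in 4108 of 4108 cells they summed to the listed total. The 2 channels shared 0 cell barcodes, and 3 columns of per-sample values in the cell table were not used. Doublets had been removed by the authors as cells with more than 1 hashtag, and no further caller was run. UMI counts, gene counts and the percent of mitochondrial UMIs per cell were also used as deposited by the authors.

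Levels were averaged per tumor, and genes averaging 0.2 UMIs per 10000 or more were tested with limma 3.58.1 (trend and robust variance, Benjamini-Hochberg adjustment) on log2(level + 0.1), so that fold changes of low genes are understated. edgeR 4.0.16 (quasi-likelihood) and DESeq2 1.42.0 on UMI sums were alternatives. The difference from TAMs was tested in 1 limma model with tumor as a random block. Tested on simulated data with known changes, limma made more false calls than edgeR. The counts of calls are therefore given for both tools, but some named genes carry only their limma value. Shares were compared by exact permutation tests over tumors (scipy 1.17.1). Intervals and floors cover counting error only. Named genes were the 12 largest rises and falls past the threshold, the 12 furthest from each other class, the 8 largest differences from TAMs each way, and listed genes. The members and gene lists were chosen with earlier results of these data known. Promoters were RefSeq's (GRCm38.p6). A few genes that these rules name are not reported here.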

Additional observations from a re-analysis of the deposited data

Results flagged for a closer look

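Of 34 groups of tumors examined for a value far from the others, 7 held one, where chance gives about 1 in 20. GC replicate 2 had the highest neutrophil share of CD45+ cells, 25.3%. GC replicate 4 had the lowest share of neutrophils among neutrophils and Monocytes 2, 66.7%, from 3 cells. One control tumor had a median of 1470 genes per neutrophil. The highest control level stood apart for Bcl2l15 (0.0643), Gpc3 (0.351), Prr5l (2.45) and Slfn5 (4.27 UMIs per 10000).

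The response of neutrophils minus that of TAMs passed the limma test for the 16 genes named by size. It was 4.22 for Slc24a3, 3.95 for Bcl2l15, 3.92 for Gm36723, 3.68 for Chil3, 3.605 for Tnfaip6, 3.48 for Gpc3, 3.45 for Alpk1 and 3.43 for Scfd2. It was -3.87 for Rsad2, -3.70 for Mt2, -3.32 for Spp1, -3.20 for Gm6209, -3.05 for Mreg, -3.02 for Wfdc17, -2.73 for Itgax and -2.71 for Cxcr2. By edgeR the difference passed for Chil3, Tnfaip6, Alpk1, Scfd2, Gm6209, Itgax and Cxcr2. With at least 5 cells a tumor it failed for Scfd2 (limma adjusted p = 0.0868), Rsad2 (0.191), Spp1 (0.558) and Mreg (0.508). With a pseudocount of 1 it failed for Spp1 (limma adjusted p = 0.191), Itgax (0.231) and Cxcr2 (0.102). Mt2 had no UMI in any neutrophil, so its value is that of the TAMs alone.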

How the results depend on the processing

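Of 213 genes called after GC, the count became 390 when deposited log values were averaged (284 higher, 106 lower), 130 with cells thinned to 1000 UMIs (32 and 98), 62 with plain variance, 81 with tumors weighted by their neutrophils (30 and 51), and 105 to 241 with 1 tumor left out, the lowest without GC replicate 3. DESeq2 called 161, and a pseudocount of 1 gave 228 (140 and 88). The causes were not tested. The TAM difference (136 genes) became 232 with a pseudocount of 1 and 67 to 284 with 1 tumor left out: 75, 80, 67 and 75 without control replicates 1 to 4 and 284 without GC replicate 2. The eosinophil difference (1526) became 276 with at least 5 cells, 553 with at least 5 cells and without cells rich in mast cell UMIs, 776 with a filter at a mean of 1, 125 by edgeR, and 1232 to 1614 with 1 tumor left out, and could not be fitted without GC replicate 2.

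With 1 tumor left out, the depth difference was 1006 to 1723 UMIs and 252 to 299 genes, at exact permutation p up to 0.167, the smallest those designs allow. Share differences were 5.40 to 9.52, 14.3 to 17.6, 23.8 to 32.1 and 31.1 to 39.4 percentage points for the 4 denominators. Their exact permutation p, adjusted over the 4 denominators, was up to 0.0317. Mreg was at 0.018 by edgeR with at least 5 neutrophils and Slfn5 at 0.10 by limma with at least 5 and without GC replicate 3, where the main values fell. The weighted fit, edgeR with at least 5 neutrophils, the fits leaving out a GC tumor at that minimum and the removal of mast cell UMIs were chosen after seeing the data. No paired analysis was possible because control and GC tumors came from different mice. The replicate numbers follow the order of the tumor names within each group and link no pair.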
